A study of Mus musculus with 6 samples.

Results

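Prostacyclin and thromboxane are lipid mediators with opposed actions on pulmonary vessels, and the 9 genes described here encode the enzymes that make or degrade them and related prostaglandins, and 3 of their receptors. The genes were chosen by symbol (Ptgs1, Ptgs2, Ptgis, Tbxas1, Ptges, Hpgd, Ptgir, Tbxa2r and Ptger4) and were each found as 1 of the 25428 features of the arrays through their gene number. The arrays hold lung RNA of 3 Nfat5(EC)-/- mice and of 3 Nfat5fl/fl mice, numbered 1, 3 and 4 in each genotype, with 1 lung lobe and 1 array per mouse. Nfat5(EC)-/- mice lack Nfat5 in endothelial cells, whereas both Nfat5 alleles of Nfat5fl/fl mice are floxed but intact. NFAT5 is a transcription factor of the Rel family that responds to osmotic and other cell stress. All 6 mice, the controls included, breathed 10% oxygen for 7 days, and the comparison shows which lung transcripts differ between the genotypes under hypoxia. The sources used here do not give the promoter that drives Cre in endothelial cells or the age and sex of the mice.

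Prostanoids are formed when phospholipases release arachidonic acid from membranes, cyclooxygenases convert it to prostaglandin H2, and terminal synthases turn this common precursor into prostacyclin, thromboxane A2 or prostaglandin E2. Prostacyclin, a main product of vascular endothelium, relaxes pulmonary arteries and restrains platelets through a receptor that raises cyclic AMP. Thromboxane A2, made largely by platelets and macrophages, constricts vessels and activates platelets through receptors coupled to Gq and G12/13 proteins. The lung also clears prostaglandins from blood, by uptake into cells and oxidation.

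To show the regulatory sequence near the start of the genes whose values differed most among those with an entry, the promoters of Ptgs2, Ptges and Ptger4 are printed. They are RefSeq windows of 300 bases in GRCm38.p6, with 250 bases before and 50 after the start, and such windows were found for 8 of the 9 genes. Capitals mark matches to any of 4 motifs, each searched on both strands. TGGAAA is the core of NFAT5 sites, ACGTG the core of hypoxia response elements, CGTCA a part of the cyclic AMP response element and TATAAA the TATA box. The shorter GGAAA, which other NFAT factors can bind, was not searched and is not marked. The windows lie at chr1:150099781-150100080 on the plus strand (Ptgs2), chr2:30903248-30903547 on the minus strand (Ptges) and chr15:5244138-5244437 on the minus strand (Ptger4).
Ptgs2: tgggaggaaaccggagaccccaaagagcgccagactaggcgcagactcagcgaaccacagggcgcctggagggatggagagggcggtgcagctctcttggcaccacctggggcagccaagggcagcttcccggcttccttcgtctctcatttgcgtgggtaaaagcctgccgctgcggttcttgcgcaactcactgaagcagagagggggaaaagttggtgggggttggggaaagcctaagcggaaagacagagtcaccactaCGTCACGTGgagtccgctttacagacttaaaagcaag
Ptges: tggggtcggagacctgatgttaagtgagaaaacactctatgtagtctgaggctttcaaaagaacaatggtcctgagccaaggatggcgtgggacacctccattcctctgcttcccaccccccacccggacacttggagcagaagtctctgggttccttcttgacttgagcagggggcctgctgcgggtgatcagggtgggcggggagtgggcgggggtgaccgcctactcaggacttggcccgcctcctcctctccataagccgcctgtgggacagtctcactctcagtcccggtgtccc
Ptger4: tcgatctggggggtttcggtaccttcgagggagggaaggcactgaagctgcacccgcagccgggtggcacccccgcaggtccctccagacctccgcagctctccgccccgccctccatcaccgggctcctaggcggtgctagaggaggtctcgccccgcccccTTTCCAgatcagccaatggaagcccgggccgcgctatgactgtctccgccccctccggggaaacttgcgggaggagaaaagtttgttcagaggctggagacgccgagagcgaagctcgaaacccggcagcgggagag

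The Ptgs2 window held overlapping matches just after the annotated RefSeq start: CGTCA on the plus strand and ACGTG on both strands. The annotated start need not be the base where transcription begins in these lungs. In the Ptger4 window the TGGAAA core lay on the minus strand, 87 bases before the start, and the Ptges window held none of the 4 motifs. Of 32851 promoter windows of this length, 21.4% held TGGAAA, 19.6% the hypoxia core, 20.8% the cyclic AMP motif and 13.6% the TATA box, so that single matches are common. Among the other genes, Tbxas1 and Hpgd had a TATAAA match and 1 of the windows of Tbxa2r a CGTCA match. A match describes letters only, and binding was not measured.

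Values are log2 array values from 0.73 to 13.01, with a median of 2.98 on each array, and differences are Nfat5(EC)-/- minus Nfat5fl/fl with their standard error (SE). A gene was called higher or lower at a limma p under 0.05 after Benjamini-Hochberg adjustment over all features. With 3 arrays per genotype, precision is limited throughout. Levels of different genes are not ranked, because each probe set has its own sensitivity, and values near or below the array median may hold little signal. Nfat5 itself was lower in every knockout lung (difference -2.23, SE 0.23, adjusted p = 0.00151), although the probes need not lie in the deleted part. Correlations across features were 0.916 to 0.939 among Nfat5(EC)-/- arrays and 0.968 to 0.970 among Nfat5fl/fl arrays. Between arrays of different genotype they were 0.829 to 0.919. Markers of lung epithelium and endothelium were high on all arrays, as the labelled tissue implies, with mean levels of alveolar type 2 markers of 8.62 to 9.07 in Nfat5(EC)-/- and 9.28 to 9.42 in Nfat5fl/fl lungs.

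Of the 9 genes, Ptgis and Ptges were called higher and Ptgs2 lower in Nfat5(EC)-/- lungs, each by about 1 log2 unit, while 6 were not called. This is 33.3% of the genes, beside 25.6% of all features called in either direction, 12.5% higher and 13.1% lower. With 9 genes, the count lies near the background and says nothing particular about them as a group. Their median difference was -0.08, against 0.04 over all features. The genotypes did not overlap for Ptgis, Ptges, Ptgs2 and Ptger4, which is 4 of 9, whereas 42.0% of all features did not overlap, 22.0% with the knockout higher and 20% with it lower.

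**Figure D1:**
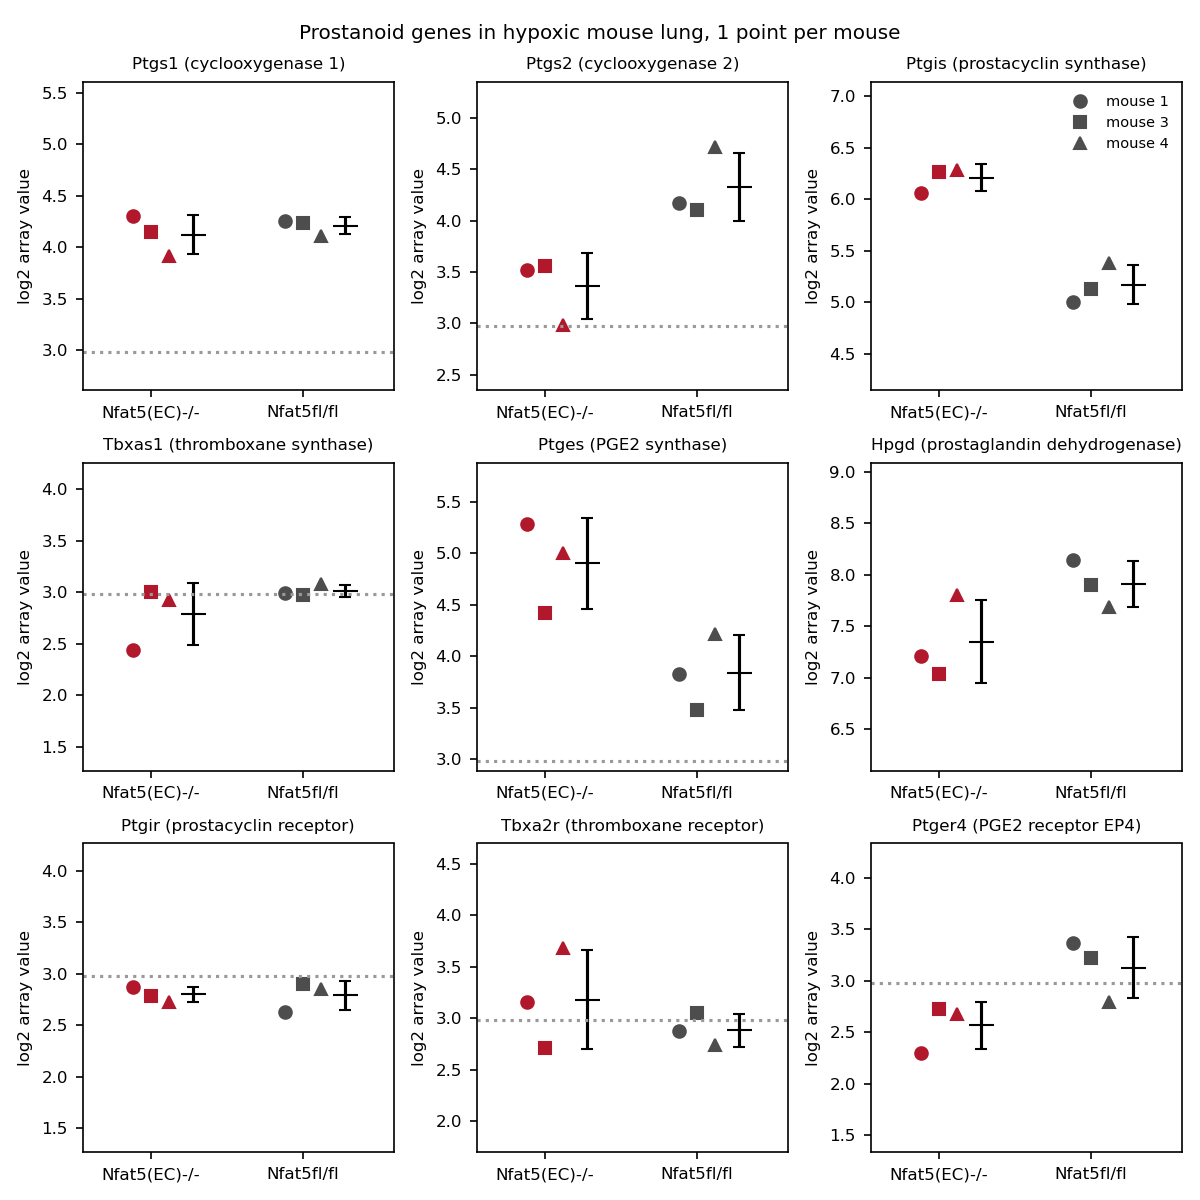
Log2 array value (y axis, 3 log2 units tall in every panel) of each gene in the Nfat5(EC)-/- lungs (left) and Nfat5fl/fl lungs (right); points are mice, the bar is the mean ± SD (n = 3 each) and the dotted line the array median of 2.98. The labels do not say whether mouse numbers pair the genotypes. Ptgis and Ptges lie higher and Ptgs2 lower in all Nfat5(EC)-/- lungs, without overlap.

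The cyclooxygenases, which make the precursor of all prostanoids, differed in their values. Ptgs2, the inducible cyclooxygenase, measured 3.52, 3.56 and 2.99 in Nfat5(EC)-/- mice 1, 3 and 4 and 4.17, 4.10 and 4.71 in Nfat5fl/fl mice 1, 3 and 4. All knockout values lay below all floxed values, with the lowest knockout and the highest floxed value both in a mouse numbered 4. That lowest knockout value, 2.99, was close to the array median of 2.98, where values may hold little signal. The means were 3.36 ± 0.32 in Nfat5(EC)-/- and 4.33 ± 0.33 in Nfat5fl/fl lungs (SD, n = 3 each), so that Ptgs2 fell by 0.97 log2 units, 1.96-fold (SE 0.25, 95% interval -1.53 to -0.41, limma adjusted p = 0.0210). The call was lost without Nfat5fl/fl mouse 1 (adjusted p = 0.0570), without Nfat5fl/fl mouse 4 (0.0751) and without Nfat5(EC)-/- mouse 4 (0.0504). Ptgs1, the constitutive cyclooxygenase that serves platelets, measured 4.30, 4.15 and 3.92 in the knockout mice and 4.26, 4.24 and 4.11 in the floxed mice. The genotypes overlapped, and the difference of -0.08 (SE 0.19, 95% interval -0.51 to 0.35, adjusted p = 0.801) was smaller than the spread within the knockout group.

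The terminal synthases of prostacyclin and prostaglandin E2 both rose, and that of thromboxane was not called. Ptgis, prostacyclin synthase, measured 6.06, 6.27 and 6.29 in Nfat5(EC)-/- mice 1, 3 and 4 and 5.00, 5.13 and 5.38 in Nfat5fl/fl mice. The closest values of the genotypes were further apart than the mice within either of them. Means of 6.21 ± 0.13 in Nfat5(EC)-/- and 5.17 ± 0.19 in Nfat5fl/fl lungs (SD, n = 3 each) gave a difference of 1.03 (SE 0.19, 95% interval 0.60 to 1.47), or 2.05-fold, with a limma adjusted p of 0.00634. It was called under all 10 other processing settings and without any single array, where adjusted p-values reached at most 0.0370.

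Ptges, the inducible microsomal prostaglandin E2 synthase, measured 5.28, 4.42 and 5.00 in Nfat5(EC)-/- mice and 3.83, 3.48 and 4.21 in Nfat5fl/fl mice. Both genotypes were widely spread, and knockout mouse 3 lay only a little above floxed mouse 4. The means were 4.90 ± 0.44 in Nfat5(EC)-/- and 3.84 ± 0.36 in Nfat5fl/fl lungs (SD, n = 3 each), a 2.09-fold increase (difference 1.06, SE 0.28, 95% interval 0.43 to 1.69, limma adjusted p = 0.0232). Ptges lost its call without Nfat5fl/fl mouse 1 (adjusted p = 0.0810), Nfat5fl/fl mouse 3 (0.102), Nfat5(EC)-/- mouse 1 (0.0530) and Nfat5(EC)-/- mouse 4 (0.0534). Tbxas1, thromboxane synthase, measured 2.44, 3.00 and 2.92 in Nfat5(EC)-/- mice and 2.99, 2.97 and 3.08 in Nfat5fl/fl mice, near the array median. Only knockout mouse 1 stood apart, and the difference of -0.23 (SE 0.21, 95% interval -0.70 to 0.25) did not pass the test (adjusted p = 0.487).

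Hpgd encodes 15-hydroxyprostaglandin dehydrogenase, the enzyme that inactivates prostaglandins in the lung. It measured 7.21, 7.04 and 7.80 in Nfat5(EC)-/- mice 1, 3 and 4 and 8.14, 7.90 and 7.69 in Nfat5fl/fl mice. Knockout mice 1 and 3 lay below every floxed mouse, whereas knockout mouse 4 lay within the floxed range. Means were 7.35 ± 0.40 in Nfat5(EC)-/- and 7.91 ± 0.22 in Nfat5fl/fl lungs (SD, n = 3 each), a difference of -0.56 (SE 0.25) that did not pass after adjustment (unadjusted p = 0.0489, adjusted p = 0.131 in limma). Without knockout mouse 4 it was -0.79 and passed (adjusted p = 0.0354).

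None of the 3 receptors was called. Ptgir, the prostacyclin receptor, measured 2.87, 2.78 and 2.73 in Nfat5(EC)-/- mice and 2.63, 2.90 and 2.85 in Nfat5fl/fl mice. These values, below the array median in both genotypes, overlapped throughout, and the 95% interval of the difference was -0.41 to 0.42 (adjusted p = 0.994). Tbxa2r, the thromboxane receptor, measured 3.16, 2.71 and 3.68 in Nfat5(EC)-/- mice and 2.87, 3.05 and 2.74 in Nfat5fl/fl mice. The knockout values spanned the floxed ones, with a difference of 0.30 (SE 0.26, 95% interval -0.29 to 0.89, adjusted p = 0.450) that shrank to 0.05 without knockout mouse 4.

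Ptger4 encodes EP4, a prostaglandin E2 receptor that raises cyclic AMP. It measured 2.30, 2.73 and 2.68 in Nfat5(EC)-/- mice and 3.37, 3.22 and 2.80 in Nfat5fl/fl mice. The genotypes did not overlap, but knockout mouse 3 and floxed mouse 4 were almost level, and the knockout values lay below the array median. The difference of -0.56 (SE 0.23, 95% interval -1.07 to -0.05) did not pass after adjustment (unadjusted p = 0.0356, adjusted p = 0.104 in limma). At an unadjusted p of 0.05, 2 of the 9 genes were higher and 3 lower, where 37.6% of all features passed, 19.0% higher and 18.6% lower.

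**Figure D2:**
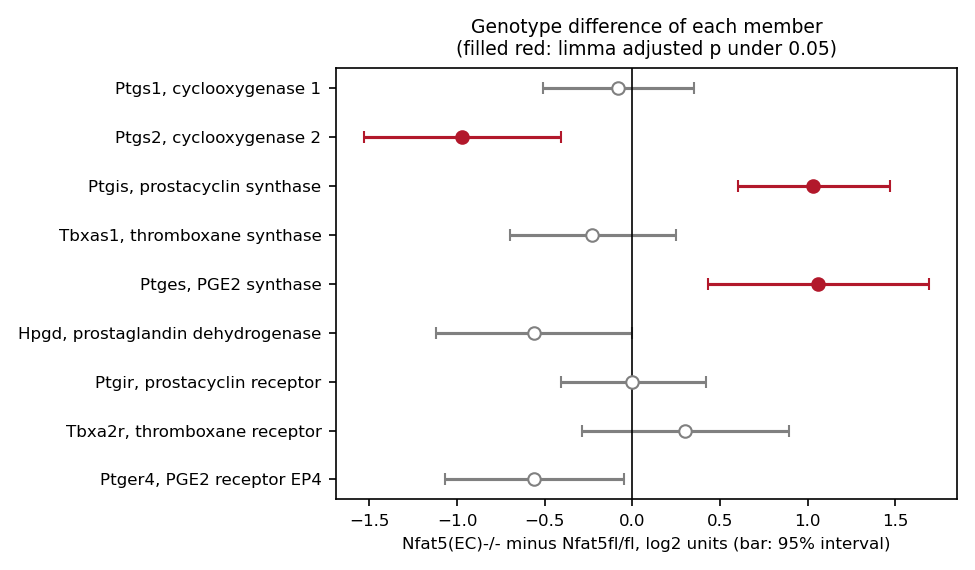
Difference between the genotypes (x axis, Nfat5(EC)-/- minus Nfat5fl/fl, log2 units) of each gene with its 95% interval; filled points passed a limma adjusted p of 0.05. The intervals of Ptgs2, Ptgis and Ptges lie clear of 0. That of Ptger4 ends at -0.05 and that of Hpgd, which begins at -1.12, ends just below 0. Those of Ptgs1, Tbxas1, Ptgir and Tbxa2r cross 0.

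Opposed or alternative genes were also compared within each array, which removes what is common to both genes. The within-array difference Ptgis minus Tbxas1 was larger in Nfat5(EC)-/- than in Nfat5fl/fl lungs by 1.26 (SE 0.13, 95% interval 0.89 to 1.63), and Ptges minus Hpgd by 1.62 (SE 0.40, 0.53 to 2.72). The change was -0.89 for Ptgs2 minus Ptgs1 (SE 0.26, -1.60 to -0.17) and -0.30 for Ptgir minus Tbxa2r (SE 0.32, -1.17 to 0.58). For the first 3 of these 4 pairs the exact two-sided permutation test gave p = 0.1, the smallest value that its 20 arrangements allow, and 0.133 after adjustment over the pairs, and for Ptgir minus Tbxa2r p = 0.4. A design of 3 against 3 arrays cannot pass 0.05 in this test.

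Over the 6 arrays, which share the genotype difference, Ptgis followed Ptges (Pearson r = 0.83) and ran opposite to Ptgs2 (r = -0.81) and Ptger4 (r = -0.81), and Ptges ran opposite to Ptger4 (r = -0.91). These are descriptions over 6 points in 2 genotype groups. The protein-coding features whose pattern over the 6 arrays was most like that of a gene were Cdc42bpg and Tfpt for Ptgis (r = 0.999 each), Fgfrl1 (0.996) and Prr7 (0.994) for Ptges, and Tmem132d (0.993) and Macroh2a1 (0.992) for Ptgs2. With 19686 candidates and 6 arrays, values this close to 1 were found for every one of the 9 genes, the lowest being 0.986 for the features most like Ptgir.

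Genes around the 9 were counted in 6 lists of the pathway, of which 91 of 98 genes were measured. Of these, 37.4% were called, 18 higher and 16 lower, against 25.6% of all features, and 57 were not called. With features below the median level left out, 73 of the genes remained, 19 higher and 15 lower. At that setting 47.0% of all remaining features were called, so that the lists show no clear excess of calls there. With the trend on gene span removed from each array, 25 of the 91 genes were higher and 11 lower. In that fit 26.3% of all 19687 protein-coding features were called, 2631 higher and 2537 lower. With the values as deposited, the median difference of the 91 genes was 0.09. Among 10 other prostanoid enzymes, 3 rose and 1 fell, which is 40.0%, beside 25.6% of all features. With features below the median level left out, 3 of 8 were higher and 1 lower, where 47.0% of all features were called. Ptges2, the other membrane-associated prostaglandin E2 synthase, measured 4.91, 5.09 and 5.07 in Nfat5(EC)-/- mice and 3.12, 3.58 and 3.43 in Nfat5fl/fl mice, without overlap (difference 1.64, SE 0.20, adjusted p = 0.00196). Ptges3, the cytosolic synthase and HSP90 co-chaperone p23, rose by 1.27 (adjusted p = 0.00826). All 3 genes named prostaglandin E synthases were thus higher, as were 12.5% of all features. However, Ptges kept its call in only 2 of 6 fits with 1 array left out. Cyp4f18, a fatty acid hydroxylase, rose by 1.20, and Ptgr2, a reductase of 15-keto-prostaglandins, fell by 0.95, a call lost without Nfat5fl/fl mouse 1, Nfat5fl/fl mouse 3 or Nfat5(EC)-/- mouse 4, which left 0 lower enzymes. Ptgds (0.61), Akr1c18 (-0.46) and Hpgds (-0.54), which act in the prostaglandin D2 and F2α branches, were not called.

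Among 10 other prostanoid receptors and transporters only Ptger1 was called, which is 10.0%, beside 25.6% of all features. With features below the median level left out, 1 of 5 was higher and 0 lower, where 47.0% of all features were called. Ptger1, the EP1 receptor for prostaglandin E2, measured 5.75, 5.51 and 6.03 in Nfat5(EC)-/- mice and 4.41, 4.28 and 4.66 in Nfat5fl/fl mice (difference 1.31, SE 0.21, adjusted p = 0.00388), without overlap. Slco2a1, the transporter that takes prostaglandins up before their oxidation, averaged 9.61 in Nfat5(EC)-/- and 9.82 in Nfat5fl/fl lungs and overlapped; it was chosen after its values were seen. Abcc4 (-0.29), a prostanoid exporter, Ptgfr (-0.32) and Ptgdr (0.19) were not called either.

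Of 17 genes that release or handle arachidonic acid, 5 rose and 3 fell (median 0.29). This is 47.1%, beside 25.6% of all features. With features below the median level left out, 6 of 14 were higher and 3 lower, where 47.0% of all features were called. Pla2g4a, the cytosolic phospholipase A2 that supplies most arachidonic acid to cyclooxygenases, measured 3.12, 3.19 and 3.74 in Nfat5(EC)-/- mice and 4.22, 4.35 and 4.36 in Nfat5fl/fl mice. All knockout values were lower (difference -0.96, SE 0.22, adjusted p = 0.0134), as they were for Plaa, a phospholipase A2 activating protein (-1.58), and Acsl4, which couples arachidonic acid to coenzyme A (-1.54). Higher were the calcium-independent Pla2g6 (0.92), the lysosomal Pla2g15 (1.34), the secreted Pla2g1b (1.45), Mgll, which releases arachidonic acid from endocannabinoid (0.69), and Dagla (0.71, adjusted p = 0.0495), while Daglb (0.66, adjusted p = 0.0576) was not called. Without Nfat5fl/fl mouse 1 or mouse 3, 2 of these genes in place of 5 were higher, and without mouse 3 the lower ones numbered 2. In the leukotriene and lipoxygenase branch 0 of 17 genes rose and 3 fell, which is 17.6%, beside 25.6% of all features. At an unadjusted limma p of 0.05, 2 were higher and 5 lower, a share near the 37.6% of all features. With features below the median level left out, 0 of 11 were higher and 1 lower, where 47.0% of all features were called. Lta4h, leukotriene A4 hydrolase, fell by 0.91, the epoxygenase Cyp2j6 by 1.21 and the epoxide hydrolase Ephx2 by 0.64. Ephx2 lay below the array median in Nfat5(EC)-/- and Nfat5fl/fl means alike (2.14 and 2.79). Cyp2j6 averaged 1.90 in Nfat5(EC)-/- lungs, below the array median, and 3.11 in Nfat5fl/fl lungs, a little above it. The branch had 1 lower gene without Nfat5fl/fl mouse 3, and 2 lower genes without Nfat5fl/fl mouse 1 or 4 or Nfat5(EC)-/- mouse 1 or 3.

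Of 21 genes listed as effectors of the prostacyclin receptor, 6 rose and 2 fell (median 0.19). This is 38.1%, beside 25.6% of all features. With features below the median level left out, 6 of 19 were higher and 3 lower, where 47.0% of all features were called. Higher were Prkaca (1.06), the catalytic subunit of protein kinase A, its regulatory subunit Prkar1b (1.40) and its substrate Vasp (1.48). So were Adcy3 (0.75), an adenylyl cyclase, Kcnk3 (1.23), the TASK-1 potassium channel, and Ppard (1.03), a nuclear receptor. Lower were Adcy2 (-1.09) and Prkar2b (-1.14), of which 1 was called without Nfat5fl/fl mouse 1 or mouse 3. Kcnk3 measured 5.01, 5.41 and 5.97 in Nfat5(EC)-/- mice and 4.27, 4.16 and 4.27 in Nfat5fl/fl mice, all knockout values being higher (adjusted p = 0.00922).

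Of 16 genes listed as effectors of the thromboxane receptor, 3 rose and 7 fell (median -0.48). This is 62.5%, beside 25.6% of all features. With features below the median level left out, the 16 genes and their calls stayed, where 47.0% of all features were called. Tbxa2r itself was not called, and signalling through the receptor was not measured. Plcb1, a phospholipase C that Gq proteins activate, measured 4.05, 3.71 and 3.32 in Nfat5(EC)-/- mice and 5.57, 5.61 and 5.08 in Nfat5fl/fl mice, without overlap (difference -1.73, SE 0.25, adjusted p = 0.00284). Also lower were its paralogue Plcb4 (-1.71), the G proteins Gnaq (-0.85) and Gna13 (-1.05), the guanine nucleotide exchange factor Arhgef12 (-1.39) and Ppp1r12a (-1.52), the targeting subunit of myosin phosphatase. Paralogues of these moved the other way: Gna11 (1.22), Plcb3 (0.81) and the exchange factor Arhgef1 (0.94) were higher. Without Nfat5fl/fl mouse 1 or mouse 3 only 1 effector was higher, without Nfat5fl/fl mouse 4, Nfat5(EC)-/- mouse 3 or Nfat5(EC)-/- mouse 4 there were 2, and without Nfat5(EC)-/- mouse 1 there were 5, while 5 to 7 were lower. The median was -0.22 without Nfat5(EC)-/- mouse 4.

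**Figure D3:**
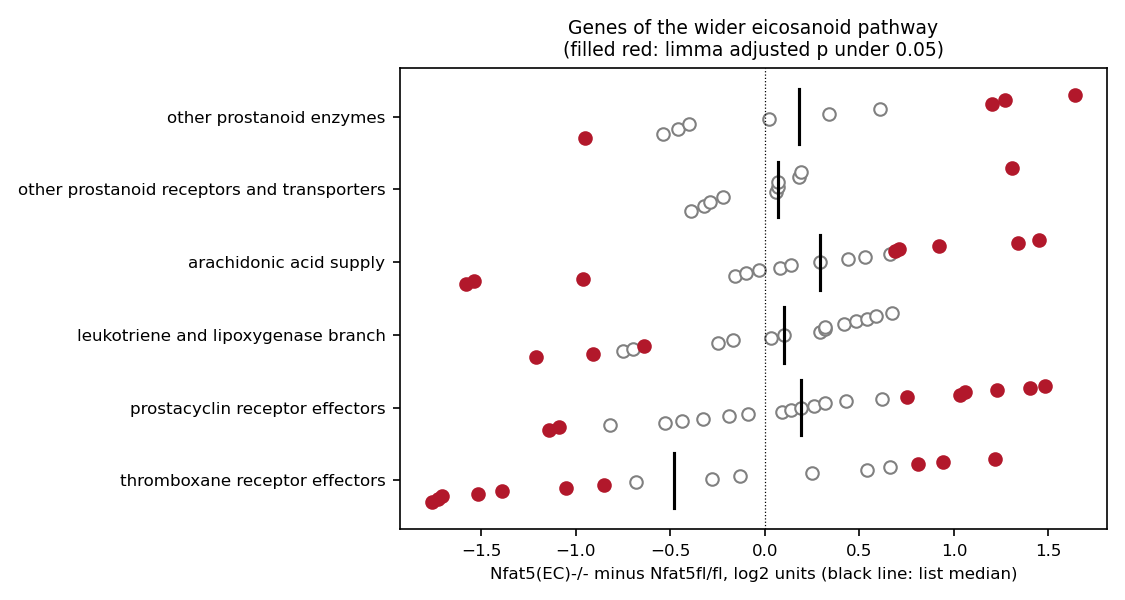
Difference of every measured gene of the 6 pathway lists (x axis, Nfat5(EC)-/- minus Nfat5fl/fl, log2 units; 1 point per gene, filled where called; points of a list are spread vertically for legibility). The median, a black line, is -0.48 for the thromboxane receptor effectors and between 0.07 and 0.29 for the other 5 lists.

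The genomic span of a gene moved with these differences. Over 19687 protein-coding features the span and the difference had a Spearman correlation of -0.32, a description across genes. Plcb1, Plcb4 and Arhgef12, which fell, are long, and Vasp and Prkaca, which rose, are short, but Prkar1b rose with a span of 133400 bp, close to the 141877 bp of Arhgef12. With this trend removed from each array, 8 of 21 prostacyclin receptor effectors were higher and 0 lower (median 0.34). Of 16 thromboxane receptor effectors, 4 were higher and 6 lower (median -0.20). In that fit 26.3% of all protein-coding features were called, 2631 higher and 2537 lower. Ptgis, Ptges and Ptgs2 kept their calls, with differences of 1.26, 1.25 and -1.19, and Ptger4 passed (-0.73, adjusted p = 0.0436). The part of span in the differences was not tested further.

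Markers of cells that carry these genes were called to different extents, beside 25.6% of all features. In a whole lobe, fewer cells of a type and less RNA per cell cannot be told apart. Endothelial markers, of cells that use Ptgis and Ptgs2, were called in 9 of 12 cases, 3 higher (Vwf, Egfl7 and Cldn5) and 6 lower (such as Cdh5 and Tek), and their mean level was 6.96 to 7.28 in Nfat5(EC)-/- and 7.54 to 7.67 in Nfat5fl/fl lungs. Of smooth muscle markers 1 of 8 rose, with mean levels of 5.50 to 5.90 in Nfat5(EC)-/- and 5.06 to 5.62 in Nfat5fl/fl lungs, and of fibroblast markers 3 of 10 rose and 1 fell, with mean levels of 6.24 to 6.38 in Nfat5(EC)-/- and 6.37 to 6.48 in Nfat5fl/fl lungs. Platelet markers, of cells that use Ptgs1 and Tbxas1, averaged 2.67 to 3.10 in Nfat5(EC)-/- and 2.87 to 3.23 in Nfat5fl/fl lungs, 5 of 10 lay below the array median in both genotypes, and only Ppbp was called (-1.24). Of 11 macrophage markers 2 rose and 3 fell, with mean levels of 4.50 to 4.94 in Nfat5(EC)-/- and 4.96 to 5.11 in Nfat5fl/fl lungs. Of 8 alveolar type 1 markers 1 rose and 4 fell, with mean levels of 7.26 to 7.67 in Nfat5(EC)-/- and 7.85 to 8.17 in Nfat5fl/fl lungs. Alveolar type 2 markers, of which 7 were measured, had 0 higher and 2 lower (8.62 to 9.07 against 9.28 to 9.42). Airway secretory markers had 0 higher and 3 lower of 8 (8.03 to 8.20 against 8.61 to 9.15). The part of cell composition in the 9 genes' differences was not tested.

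**Figure D4:**
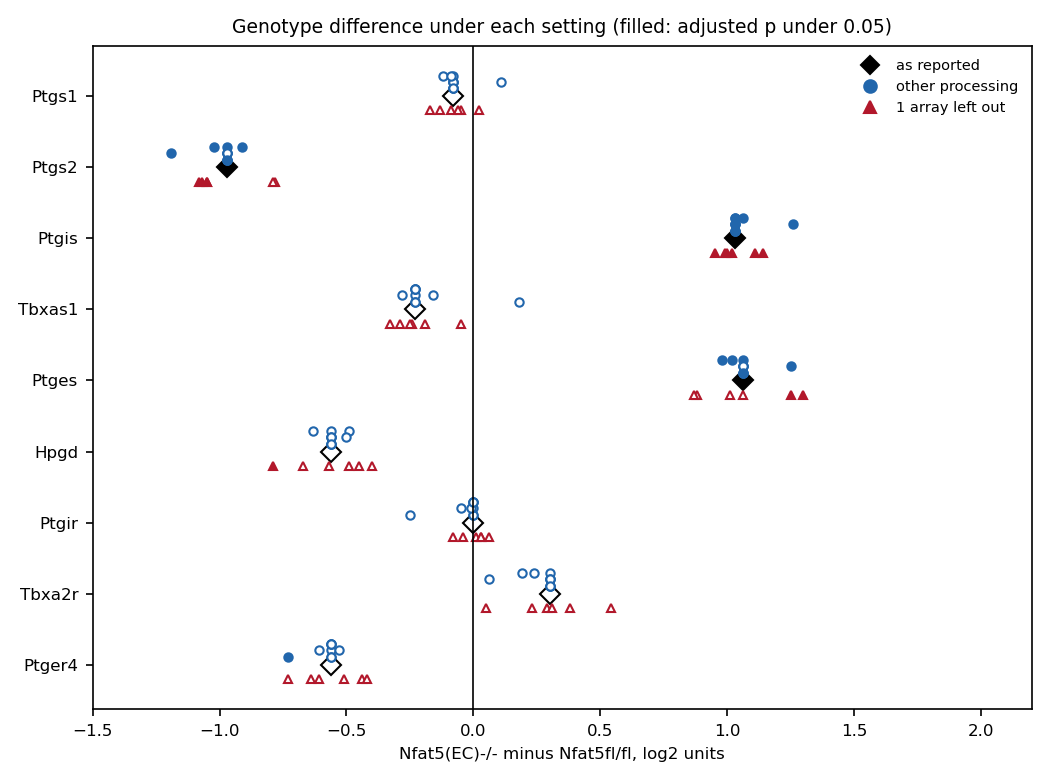
Difference of each gene (x axis, Nfat5(EC)-/- minus Nfat5fl/fl, log2 units) as reported (diamond), under other processing (circles) and with 1 array left out (triangles); filled points passed an adjusted p of 0.05. Ptgis is filled throughout, between 0.95 and 1.26, whereas Ptgs2 and Ptges hold open triangles.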

How the data were processed

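Total RNA of lung lobes was labelled with biotin and hybridised to Affymetrix arrays, 1 per mouse. The authors deposited log2 values that they computed with RMA, per the labels. RMA subtracts background, equalises quantiles and summarises probes. A change in total RNA is therefore not visible, detection calls are lacking, and low values are compressed. The sources used here give no array type, RMA version, build or probe positions. Between arrays, sorted values differed by no more than 0.00183.

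Genotypes and mouse numbers came from the labels, which do not describe the mice beyond separate numbers. The 9 genes were found by gene number. A platform table named 24705 features and left 723 unlisted, among them that of Ptgs1, which was named through its number, since number and gene number were equal for all 24705. Of 98 genes in the 6 pathway lists, 91 had a named feature, and the others were not analysed here. The genes and lists were chosen with earlier results of these data known.

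All 25428 features of the 6 arrays were fitted with limma 3.58.1 (R 4.3.3; lmFit and eBayes, no filter or covariate, two-sided, Benjamini-Hochberg over all features, threshold 0.05). Named are the 9 genes, Nfat5, each called gene of the lists (except 1 that is not reported here) and up to 3 more per list by lowest p, with Slco2a1 added after its values were seen, and features most alike by Pearson r. Spans and promoters came from RefSeq (GRCm38.p6). Pair changes were tested by exact permutation over arrays. In 6 simulations with 25428 features and 200 changed, 15.2% of changes of 1 log2 unit and 73.5% of changes of 2 were recovered. Of the simulated calls, 3.45% were false. In the data 6510 features were called, so that the adjustment was stricter in the simulations. These shares therefore do not give the recovery in the data. Alternatives were a replicate block by mouse number, a filter on features below the median level, median, quantile and cyclic loess normalization, a variance trend with robust moderation, no moderation, array weights, protein-coding features alone or with the span trend removed by lowess, and leaving out each array. Plots used matplotlib 3.10.9 (Python 3.11.15).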

Additional observations from a re-analysis of the deposited data

How the results depend on the processing

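Ptgis stayed called under all 16 alternatives. Without variance moderation 1 of the 9 genes was higher and 0 lower, since Ptgs2 (-0.97, adjusted p = 0.104) and Ptges (1.06, adjusted p = 0.126) were lost, with 10 higher and 5 lower genes in the wider lists and 1984 features called in all, 1118 higher and 866 lower, against 6510, 3185 and 3325. With the span trend removed 2 of the 9 were lower, as Ptger4 passed (-0.73), and the uncalled differences of Ptgs1 (0.11), Tbxas1 (0.18) and Ptgir (-0.25) changed sign. Ptgir was -0.05 after cyclic loess and -0.01 with array weights. The cause of these changes was not tested.

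When each array was left out in turn, 1 to 2 of the 9 genes were higher and 0 to 1 lower. Without Nfat5(EC)-/- mouse 4 the 1 lower gene was Hpgd in place of Ptgs2. In the wider lists 12 to 21 genes were higher and 10 to 15 lower (18 and 16 with all arrays), with 12 higher without Nfat5fl/fl mouse 1 or 3 and 10 lower without Nfat5fl/fl mouse 3. Differences lay between -1.08 and -0.78 for Ptgs2, 0.87 and 1.30 for Ptges, -0.79 and -0.40 for Hpgd, -0.73 and -0.42 for Ptger4, -0.17 and 0.02 for Ptgs1, -0.33 and -0.05 for Tbxas1, -0.08 and 0.06 for Ptgir, and 0.05 and 0.54 for Tbxa2r. The number of features called fell to 3273 without Nfat5fl/fl mouse 1 and 3017 without Nfat5fl/fl mouse 3. An arm with 1 array fewer holds 2.

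The labels do not say whether the mouse numbers pair the genotypes. Deviations of same-numbered arrays had correlations of 0.0647, -0.0103 and 0.00719. These show no strong shared deviation, but they cannot show whether same-numbered mice were bred or handled together. With the mouse number as a replicate block, 2 of the 9 genes were higher and 1 lower, Ptgs2 had an adjusted p of 0.0443, 19 genes of the wider lists were higher and 15 lower, and 6310 features were called. The filter on dim features removed Tbxas1, Ptgir and Ptger4, whose values near the array median limit what the arrays can show of them. It called 5981 of 12714 features (47.0%). Of the uncalled genes, the 95% intervals of Hpgd (to -1.12) and Ptger4 (to -1.07) reach 1 log2 unit, and those of the other 4 do not.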
